A study of Bos taurus with 4 samples.

Results

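Goblet cell and mucin genes were followed through 4 bovine libraries. The set was 10 genes taken by symbol from the 29792 gene rows of the count files, and each gene had 1 row: MUC2, MUC1, MUC13, TFF3, CLCA1, AGR2, FCGBP, SPDEF, ZG16 and CREB3L1. The libraries came from small intestine, from muscle, and from intestinal organoids at passage 5 (P5) and at passage 10 (P10), with 1 library for each. All 4 carry the label Hanwoo, a Korean cattle breed, with animals older than 24 months. No treatment or altered gene is given for any library. Organoids are small hollow bodies of epithelium grown from crypts, here crypts of the jejunum, embedded in Matrigel (a basement membrane gel) and fed with IntestiCult, a medium sold for human intestinal organoids. Neither the number of animals or cultures behind a library nor the muscle that was sampled is given in the sources used here. With 1 library per group there was no spread between replicates, so the differences below could not be checked against replicates and no p-values are given.

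Goblet cells are secretory cells of the intestinal epithelium that make mucus. Their main product is the gel-forming mucin MUC2, which is released together with other proteins that bind or process the gel, while membrane mucins such as MUC13 and MUC1 stay anchored in the surface of epithelial cells. The secretory genes of goblet cells are run by a programme that starts with the transcription factor ATOH1 and includes SPDEF. Large mucins depend on folding helpers of the endoplasmic reticulum such as AGR2. The study stained Mucin2 as its goblet cell marker in crypts and in P5 organoids, which is a measurement of protein separate from the read counts here. It also measured MUC2 mRNA by quantitative RT-PCR, in organoids of a later passage than those sequenced. There it reported MUC2 as higher in organoids than in muscle, with no intestine in that comparison.

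Expression was measured with QuantSeq, in which each read starts near the 3′ end of a polyadenylated RNA, so counts were not divided by gene length. The libraries held between 12917720 and 17776273 counted reads. Levels are given as reads and as counts per 1000000 reads of the library (CPM), with a 95% exact Poisson interval. Differences are log2 differences of the quantile-normalised counts plus 1. Their 95% intervals hold nothing but counting error, taken as Poisson, and no spread between replicates. Reads copied by PCR do not stand for separate molecules, so the intervals may be too narrow even for counting error. The floor was set at 3 reads, which was 0.169 CPM in intestine and P10 organoids, 0.221 in P5 organoids and 0.232 in muscle. RN18S1, which encodes the RNA of the small ribosomal subunit, took 23.6% of the muscle reads and 0.264% to 4.81% of the reads in the other libraries.

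The labels were set against lists of marker genes. The 8 skeletal muscle genes summed to 42403 CPM in muscle and to between 1.97 and 3.38 CPM elsewhere. The 12 epithelium genes summed to 11756 CPM at P5 and 11028 at P10, against 2321 in intestine and 50.1 in muscle. Intestine also held leukocyte genes (6252 CPM over 8 genes), smooth muscle genes (2275 CPM over 6) and stroma genes (1180 CPM over 7), and these lists summed to between 0.282 and 12.6 CPM in the organoids. Over the libraries in the order intestine, P5 and P10 organoids, 10 enterocyte genes summed to 33129, 4699 and 292 CPM and 8 genes of dividing cells to 109, 625 and 1103 CPM. The part of this changing make-up in the differences below was not tested. Fewer goblet cells and less RNA per goblet cell cannot be told apart in such bulk libraries.

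Together the 10 genes took 112454 reads in intestine, or 0.633% of the library (95% exact binomial interval 0.629 to 0.636). In P5 organoids they took 28872 reads, or 0.212% (0.210 to 0.215), and in P10 organoids 22722 reads, or 0.128% (0.126 to 0.130). In muscle they took 322 reads, or 0.00249% (0.00223 to 0.00278). The make-up of the set also differed. FCGBP gave 40.2% and TFF3 32.1% of the set's reads in intestine. In P5 organoids MUC13 gave 34.2% and TFF3 27.7%, and in P10 organoids AGR2 gave 26.6% and TFF3 25.8%.

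**Figure D1:**
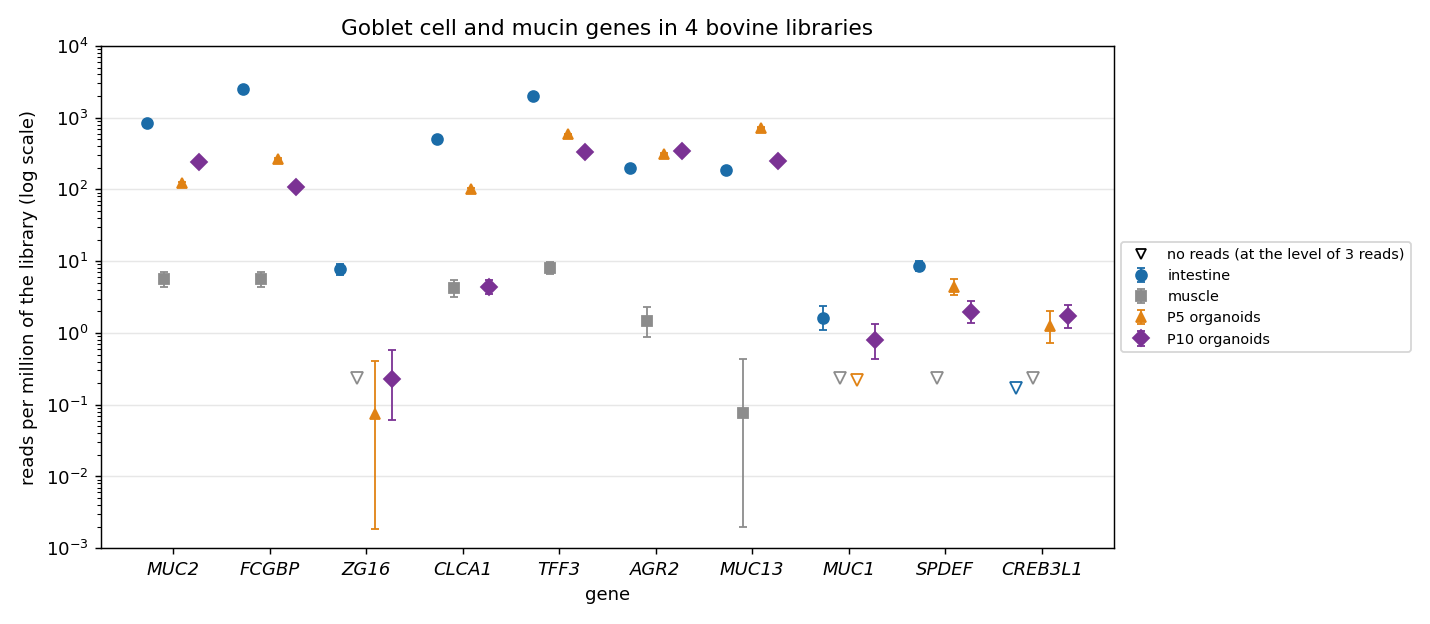
Level of each of the 10 genes in the 4 libraries, in CPM on a log axis. Points are single libraries, bars are 95% exact Poisson intervals, and open triangles mark libraries with no reads, drawn at the level of 3 reads. MUC2, FCGBP, CLCA1 and TFF3 were highest in intestine, MUC13 in P5 organoids (727 CPM) and AGR2 in P10 organoids (341 CPM).

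The secreted mucus components MUC2, FCGBP, CLCA1 and ZG16 were lower in both organoid libraries than in intestine. MUC2, the gel-forming mucin, had 15017 reads in intestine, 1666 at P5, 4242 at P10 and 72 in muscle. These were 845 CPM (831 to 858) in intestine, 123 (117 to 129) at P5, 239 (232 to 247) at P10 and 5.57 (4.36 to 7.02) in muscle. Its log2 difference from intestine was -3.03 in P5 organoids (-3.11 to -2.95) and -2.06 in P10 organoids (-2.10 to -2.01). MUC2 was thus higher in P10 than in P5 organoids, by a log2 difference of 0.97 (0.89 to 1.06), or 1.95 times per library total (1.84 to 2.07). The intervals of the 4 libraries did not overlap.

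FCGBP encodes a large mucus protein that links to MUC2 in the gel. It had 45246 reads in intestine, 3668 at P5, 1925 at P10 and 72 in muscle, and in intestine it was the row with rank 29 of all rows by reads. Its log2 difference from intestine was -3.42 in P5 organoids (-3.46 to -3.37) and -4.81 in P10 organoids (-4.88 to -4.75). Unlike MUC2, FCGBP was lower in P10 than in P5 organoids, by a log2 difference of -1.40 (-1.48 to -1.32).

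CLCA1 encodes a secreted protease of the mucus layer. It had 8900 reads in intestine, 1366 at P5, 78 at P10 and 54 in muscle. In CPM these were 501 (490 to 511), 100.4 (95.2 to 105.9), 4.399 (3.48 to 5.49) and 4.18 (3.14 to 5.45). P10 organoids and muscle overlapped in their counting intervals, and both were far below intestine and P5 organoids. The log2 difference from intestine was -2.57 in P5 organoids (-2.65 to -2.49) and -6.87 in P10 organoids (-7.16 to -6.61). Between the passages it was -4.31 (-4.60 to -4.03), the largest difference of the 10 genes between P10 and P5 organoids.

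ZG16 encodes a lectin-like protein of mucus that binds bacterial cell walls. It had 137 reads in intestine, 1 at P5, 4 at P10 and none in muscle, so it was close to the floor outside intestine. Per library total, P5 organoids held 0.00954 times the level of intestine (exact interval 0.00024 to 0.0541) and P10 organoids 0.0293 times (0.00786 to 0.0767). The difference between the passages, 4 reads against 1, was not detectable at this depth.

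Of the other secretory genes, TFF3 was lower in both organoid libraries than in intestine, and AGR2 was slightly higher except when scaled by the epithelium list. TFF3, a trefoil peptide released with mucus that helps the epithelium to repair, had 36062 reads in intestine, 8005 at P5, 5869 at P10 and 104 in muscle. In the same order the levels were 2029 CPM (2008 to 2050), 589 (576 to 602), 331 (323 to 340) and 8.05 (6.58 to 9.76), with no overlap. The log2 difference from intestine was -1.77 in P5 organoids (-1.82 to -1.73) and -2.70 in P10 organoids (-2.73 to -2.66), and that between the passages was -0.93 (-0.97 to -0.87).

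AGR2 is a protein disulfide isomerase that helps MUC2 to fold. It had 3560 reads in intestine, 4202 at P5, 6052 at P10 and 19 in muscle. The levels were 200.3 CPM (194 to 207) in intestine, 309 (299.7 to 318) at P5, 341 (333 to 350.0) at P10 and 1.47 (0.886 to 2.30) in muscle. Against intestine its log2 difference was 0.39 in P5 organoids (0.32 to 0.45) and 0.54 in P10 organoids (0.49 to 0.61). These differences were under 2-fold, and they turned to -1.71 and -1.48 when each library was scaled by its reads on the epithelium list. Between the passages the log2 difference was 0.16 (0.10 to 0.22).

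Of the membrane mucins, MUC13 was higher in P5 organoids than in intestine except when scaled by the epithelium list, and MUC1 had few reads. MUC13, an epithelial membrane mucin made by many cells of the intestinal surface and not by goblet cells alone, had 3349 reads in intestine, 9887 at P5, 4472 at P10 and 1 in muscle. The levels were 188 CPM (182 to 195) in intestine, 727 (713 to 741) in P5 organoids and 252 (245 to 260) in P10 organoids. Against intestine MUC13 lay higher by 1.85 on the log2 scale at P5 (1.79 to 1.92) and by 0.14 at P10 (0.080 to 0.22). Between the passages it was -1.71 (-1.76 to -1.64). Scaled by the epithelium list, both differences from intestine turned negative, to -0.39 at P5 and -1.83 at P10.

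MUC1, the membrane mucin of many glands and ducts, was scarce in all libraries. It had 29 reads in intestine, or 1.63 CPM (1.09 to 2.34), 14 in P10 organoids, or 0.790 CPM (0.432 to 1.32), and none in P5 organoids or muscle. The floor of 3 reads is 0.221 CPM in P5 organoids. Set against it, MUC1 was at least 3.76-fold lower there than in intestine on the quantile scale and 7.40-fold lower per library total. These bounds leave out counting error. P10 organoids held 0.484 times the level of intestine per library total (exact interval 0.236 to 0.946). With quantile normalisation the log2 difference was 0.11 with an interval across 0 (-0.69 to 0.96), so the direction depended on the scaling. After quantile normalisation a single read was worth 0.32 on the log2 scale in intestine and 2.09 in P10 organoids.

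**Figure D2:**
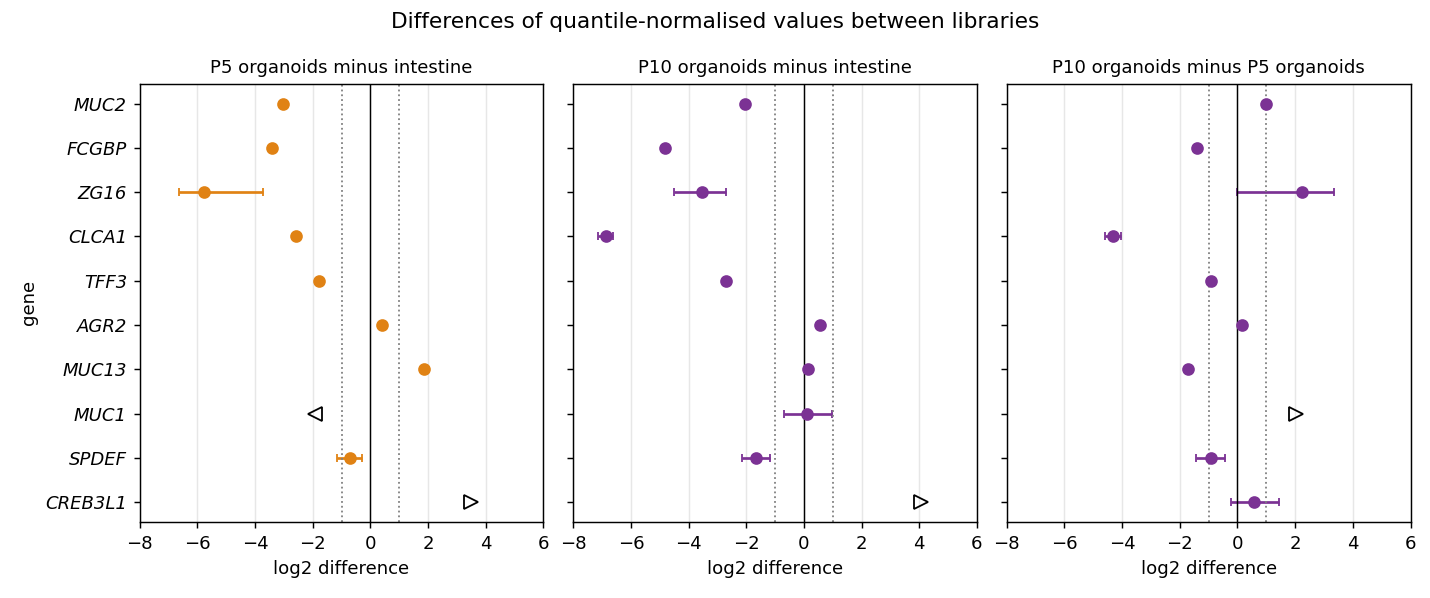
Log2 differences of quantile-normalised counts plus 1 for the 10 genes, for P5 organoids minus intestine, P10 organoids minus intestine and P10 minus P5 organoids. Points have 95% intervals for counting error (often narrower than the point), open arrows are bounds against a library with no reads, and dotted lines mark 2-fold. CLCA1 lay at -6.87 in P10 organoids against intestine, while MUC13 lay at 1.85 in P5 organoids against intestine.

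The transcription factors of the set were counted at few reads. SPDEF, an ETS factor needed for goblet cell maturation, had 154 reads in intestine, 60 at P5, 35 at P10 and none in muscle. The levels were 8.66 CPM (7.35 to 10.1), 4.41 (3.37 to 5.68), 1.97 (1.37 to 2.75) and, with no reads in muscle, an interval up to 0.286. Intestine, P5 and P10 organoids did not overlap. The log2 difference from intestine was -0.72 in P5 organoids (-1.15 to -0.29) and -1.64 in P10 organoids (-2.15 to -1.17), and that between the passages was -0.92 (-1.45 to -0.43). With TMM normalisation the 3 values were -1.13, -2.33 and -1.20, each past 2-fold.

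CREB3L1 encodes a membrane-bound transcription factor of the endoplasmic reticulum that drives secretory genes. It had no reads in intestine or muscle, 17 in P5 organoids, or 1.25 CPM (0.728 to 2.001), and 31 in P10 organoids, or 1.75 CPM (1.19 to 2.48). Both organoid libraries were above both tissues, and they overlapped with each other (log2 difference 0.57, -0.23 to 1.44). Against intestine, CREB3L1 was at least 7.41-fold higher at P5 and at least 10.4-fold higher at P10 per library total, and at least 11.1-fold and 16.5-fold higher on the quantile scale. Over all alternatives this bound ran from 0.50 to 4.28 on the log2 scale at P5 and from 1.03 to 4.87 at P10, lowest when scaled by the epithelium list.

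To set these values against the rest of the genes, differences of at least 2-fold were counted over the genes whose higher library of a pair held 50 reads or more. Of the 8 genes of the set that met this minimum in P5 organoids and intestine, 5 were at least 2-fold lower in P5 organoids (MUC2, FCGBP, ZG16, CLCA1 and TFF3), beside 20.2% of 14060 genes. MUC13 was the 1 gene at least 2-fold higher, beside 20.2% of all genes in that direction as well. Of the 8 genes in P10 organoids and intestine, 6 were at least 2-fold lower (the same 5 and SPDEF), beside 23.6% of 14365 genes, and 0 were at least 2-fold higher, beside 25.5%. The median log2 difference of the 8 genes was -2.17 at P5 and -2.38 at P10, where the median of all these genes was 0.065 and 0.10. Both comparisons use the same intestine library. ZG16 in both comparisons and SPDEF in that of P10 organoids met the minimum through intestine alone. No support is taken from their place in the counts or in the medians of the 8 genes. MUC1 and CREB3L1 missed the minimum.

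Between P10 and P5 organoids, 3 of 7 genes with enough reads were at least 2-fold lower in P10 organoids (CLCA1, MUC13 and FCGBP), beside 12.2% of 12735 genes. None of the 7 was at least 2-fold higher, beside 12.6%, and MUC2 at 1.95 times per library total lay just inside 2-fold. When scaled by library totals, by TMM or by upper quartiles, SPDEF joined the lower genes, which made 4, but it met the minimum through P5 organoids alone. The median of the 7, which include SPDEF, was -0.93, against 0.090 over all genes, and no support is taken from the place of SPDEF in it.

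Scaling by the epithelium list asks how each gene compared with epithelial RNA and not with all RNA of the library, since the intestine library also held other tissue layers. The median of all genes then moved to -2.21 in P5 and -2.002 in P10 organoids against intestine, and the differences of the set moved with it: MUC2 lay at -5.13 and -4.07, TFF3 at -4.13 and -4.86, and FCGBP at -5.58 and -6.80. AGR2 and MUC13 changed sign but stayed above the median of all genes. The keratins KRT8, KRT18 and KRT19 made up most of this list in the organoids. Without these 3 genes, a setting chosen after seeing the data, MUC13 lay at 0.23 in P5 and -0.94 in P10 organoids and AGR2 at -1.09 and -0.59.

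**Figure D3:**
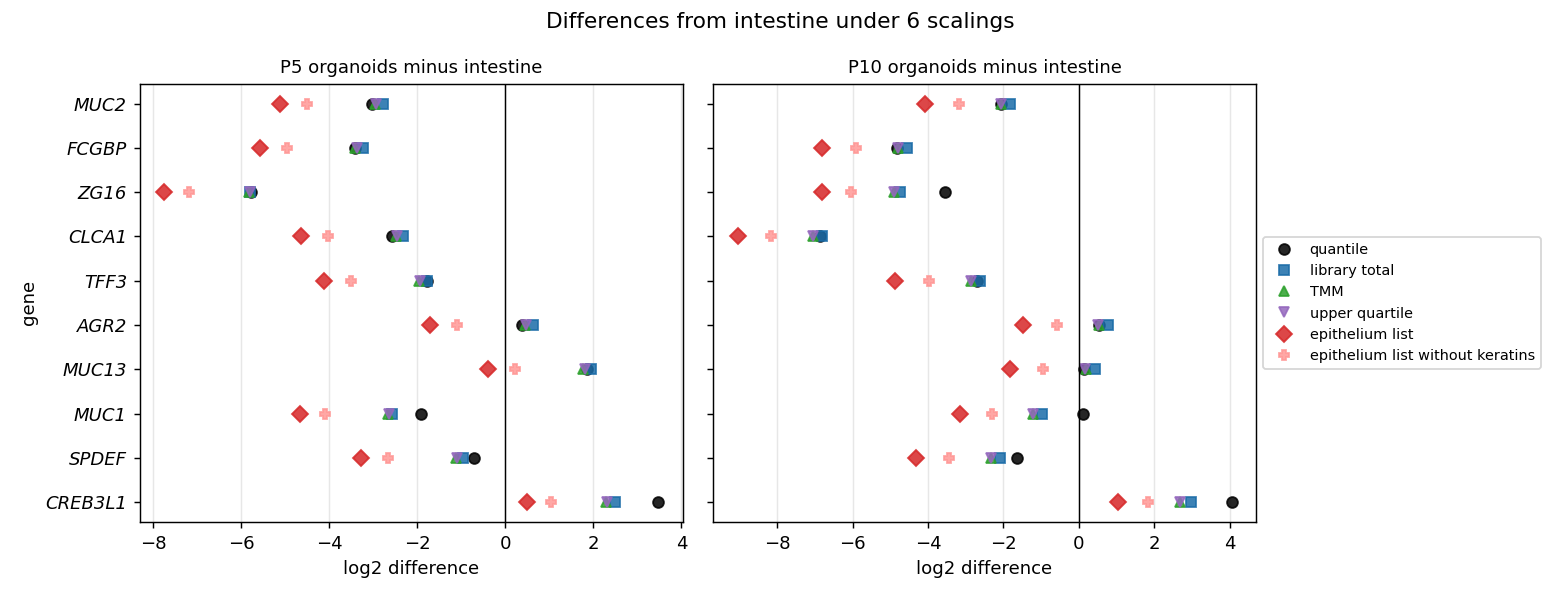
Log2 differences of the 10 genes from intestine under 6 scalings, for P5 organoids (left) and P10 organoids (right), with each marker the value under 1 scaling. Quantile, library total, TMM and upper-quartile values lay close together for genes with many reads, and scaling by the epithelium list moved every gene toward lower values, MUC13 in P5 organoids from 1.85 to -0.39.

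The ratio of one gene's reads to another's within a library needs no normalisation, so the secretory genes were also set against MUC2. For each 100 reads of MUC2, CLCA1 had 59.3 reads in intestine (exact interval 57.7 to 60.8), 82.0 in P5 organoids (76.3 to 88.1) and 1.84 in P10 organoids (1.45 to 2.30). FCGBP had 301 (296 to 307), 220.2 (208 to 233) and 45.4 (43.0 to 47.9). CLCA1 and FCGBP thus stood within 2-fold of their intestinal proportion to MUC2 in P5 organoids, and well below it in P10 organoids.

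TFF3 had 240.1 reads per 100 MUC2 reads in intestine (236 to 245), 480.5 in P5 organoids (456 to 507) and 138 in P10 organoids (133 to 144). AGR2 had 23.7 (22.8 to 24.6), 252 (238 to 267) and 143 (137 to 148). MUC13 had 22.3 (21.5 to 23.2), 593 (563 to 625) and 105 (101 to 110.0). SPDEF had 1.03 in intestine (0.869 to 1.20), 3.60 in P5 organoids (2.74 to 4.66) and 0.825 in P10 organoids (0.574 to 1.15), so intestine and P10 organoids overlapped. In both organoid libraries AGR2 and MUC13 were above their intestinal proportion to MUC2, and in P10 organoids TFF3 was below it.

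**Figure D4:**
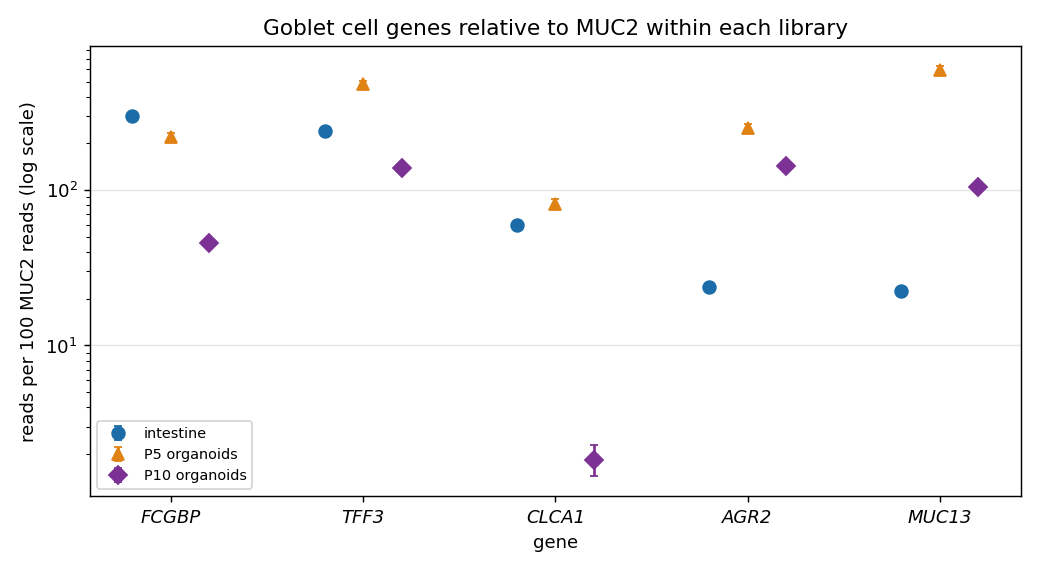
Reads of FCGBP, TFF3, CLCA1, AGR2 and MUC13 per 100 reads of MUC2 within the intestine, P5 organoid and P10 organoid libraries, on a log axis with 95% exact intervals for counting error. CLCA1 stood at 82.0 in P5 organoids and at 1.84 in P10 organoids, and AGR2 and MUC13 lay above intestine in both.

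Muscle served as the tissue without goblet cells. Of the 10 genes, 5 had more than 3 reads there, between 19 for AGR2 and 104 for TFF3, and MUC13 had 1 read. All 8 genes that reached 50 reads in intestine or muscle were at least 2-fold higher in intestine, beside 30.6% of 13938 genes. The same held for 7 of 7 genes in P5 organoids, beside 31.6%, and for 5 of 6 in P10 organoids, beside 34.6%, where CLCA1 was the exception. With library totals the backgrounds were 56.9%, 58.4% and 61.4%, where the median log2 difference of all genes was 1.28, 1.35 and 1.54, against 0.11, 0.14 and 0.25 with quantile normalisation. SPDEF, ZG16, MUC13 and AGR2, with between 0 and 19 reads in muscle, could meet the read minimum only through the other library, so no support is taken from their place in these counts. With library totals the log2 difference of CLCA1 between P10 organoids and muscle was 0.073, and with quantile normalisation it was -1.18 (-1.64 to -0.70).

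The muscle reads of the genes were a small and uneven share of their intestine reads: 0.607% for CLCA1 (exact interval 0.455 to 0.792), 0.534% for AGR2, 0.479% for MUC2, 0.288% for TFF3, 0.159% for FCGBP (0.124 to 0.200) and 0.0299% for MUC13. Over the set the share was 0.286% (0.256 to 0.319). It was 1.57% over the epithelium list and 0.179% over the enterocyte list. Where these reads came from was not tested.

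Few of the other mucin genes could be compared. Of 17 symbols, 13 were in the files and 3 had at least 50 reads in any library. Symbols without a row could not be counted, so nothing is said of their levels. MUC20, a membrane mucin, had 7 reads in intestine and 2 in muscle, against 94 at P5 and 349 at P10. It lay above intestine by 4.66 on the log2 scale at P5 (3.70 to 5.73) and by 5.95 at P10 (5.02 to 6.997). CD164, a sialomucin found on many cell types, had 1536, 510, 991 and 759 reads in the same order, with log2 differences from intestine of -0.49 and -1.34. EMCN, an endothelial sialomucin, had 62, 89, 16 and 4 reads, and its difference from intestine in P5 organoids had an interval across 0 (-0.78, -1.68 to 0.0073), while in P10 organoids it lay at -2.13 (-3.13 to -1.24). In the comparisons with intestine, EMCN met the minimum through intestine alone and MUC20 through the organoids alone. The gastric mucins MUC5AC and MUC6 had at most 1 and 32 reads in any library. In RefSeq's ARS-UCD2.0 annotation MUC5AC is the protein-coding neighbour of MUC2, which had 15017 reads in intestine where MUC5AC had 1.

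Among 20 other genes listed as goblet cell markers, 17 were in the files. Whether each of them is particular to goblet cells in these tissues was not tested. Of 13 with enough reads, 2 were higher by at least 2-fold and 3 lower at P5 than in intestine, with a median of 0.16, beside 20.2% of all genes in each direction. TFF1 and TFF2, among the 3 lower, met the minimum through intestine alone. TSPAN1, among the 2 higher, met it through P5 organoids alone. No support is taken from the place of these genes in the counts or the median. TFF2 and TFF1, the trefoil genes that follow TFF3 in the annotation, had 3342 and 327 reads in intestine and none in the other 3 libraries. On the quantile scale they were at least 715-fold and 63.1-fold lower in P5 organoids, and at least 419-fold and 37.0-fold lower in P10 organoids. These bounds use the floor of 3 reads, which stood at 2.09 in P5 and 2.86 in P10 organoids on the log2 scale. The passages are thus not compared by them. TFF3 kept 8005 and 5869 reads. SPINK4, a secreted protease inhibitor of goblet cells, had 22250 reads in intestine, 4936 at P5 and 5247 at P10 (1252, 363 and 296 CPM). TSPAN1, a tetraspanin, had 28, 616 and 390 reads. LYPD8, a secreted protein that keeps bacteria off the epithelium, was the other higher gene at P5. It had 3168 reads in intestine, 6311 at P5 and 465 at P10. Its log2 difference from intestine was 1.18 at P5 (1.10 to 1.23) and -3.13 at P10.

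CLCA4, the annotated neighbour of CLCA1 and its relative, had 1735 reads in intestine, 1760 at P5 and 52 at P10. Its log2 difference between the passages was -5.14 (-5.48 to -4.83), beside -4.31 for CLCA1, but CLCA4 differed little from intestine in P5 organoids (0.16, 0.070 to 0.26). Reads that align to several related genes were counted by the authors and were not separated here. Between the passages, 5 of 12 markers were at least 2-fold lower in P10 organoids and 3 were higher, with a median of -0.35, beside 12.2% and 12.6% of all genes. The 5 lower were CLCA4, GUCA2A, TSPAN1, LYPD8 and NLRP6. The enterocyte list also summed to less in P10 organoids (4699 CPM at P5 and 292 at P10). Whether the 5 genes follow goblet cells or enterocytes was not tested. LYPD8 had 6311 reads in P5 and 465 in P10 organoids (-4.31). NLRP6, a sensor of the inflammasome, had 1057 and 456 (-1.68), and REP15, a protein of vesicle transport, had 15 and 71 (1.68). REP15, among the 3 higher, met the minimum through P10 organoids alone, so no support is taken from its place there. The others of the 3 met it in both organoid libraries: ATP2C2 (308 and 1179 reads, 1.45) and SLC12A8 (80 and 286 reads, 1.22). AGR3, the neighbour of AGR2 and its relative, had 285 reads in intestine, 319 at P5 and 352 at P10.

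Of 12 transcription factors, 9 had enough reads in P5 organoids and intestine. At P5, 5 of the 9 were higher by at least 2-fold and 1 was lower, beside 20.2% of all genes in each direction. Their median was 1.03. These values were not recomputed with scaling by the epithelium list, which moved the median of all genes to -2.21. ATOH1, which commits cells to the secretory lineage, had 195 reads in intestine, 189 at P5 and 80 at P10. Compared with intestine, its log2 difference was 0.39 at P5 (0.085 to 0.70) and -1.11 at P10 (-1.47 to -0.76). Between the passages ATOH1 was lower by a log2 difference of -1.50 (-1.84 to -1.18) and KLF4, a factor of differentiated goblet and surface cells, by -1.85 (-2.05 to -1.67). They were the 2 of 10 factors at least 2-fold lower in P10 organoids, beside 12.2% of all genes, and none was at least 2-fold higher, beside 12.6%.

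ELF3, an epithelial ETS factor that is also in the epithelium list, had 253, 1695 and 2368 reads in intestine, P5 and P10 organoids. HES1, which acts downstream of Notch against the secretory fate, had 1095, 2883 and 1940 reads, and lay above intestine by 1.56 on the log2 scale at P5 (1.45 to 1.67) and by 0.57 at P10. NEUROG3, the factor of enteroendocrine precursors, had 28, 36 and 51 reads. XBP1, a factor of the unfolded protein response, had 3619, 1530 and 3811 reads, with log2 differences of -1.15 at P5 and -0.19 at P10 against intestine and 0.97 (0.88 to 1.05) between the passages.

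The genes listed for mucin glycosylation, not all of them enzymes, were mixed in direction. Of 18 with enough reads, 3 were at least 2-fold higher and 3 lower in P5 organoids than in intestine, with a median of 0.24, near the 20.2% of all genes in each direction. The 3 lower, which met the minimum through intestine alone, were ST3GAL1 (306 reads in intestine, 5 in P5 and 31 in P10 organoids), ST3GAL4 (77, 3 and 4 reads) and GCNT1 (374, 42 and 69 reads). ST3GAL1 and ST3GAL4 add sialic acid, and GCNT1 makes core 2 branches. The intestinal branching enzyme GCNT3 was among those higher, with 1877, 6000 and 5539 reads. B3GNT7 had no reads in intestine, 46 at P5 and 57 at P10. Between the passages B3GNT6, which makes the core 3 structure typical of intestinal mucin, was lower in P10 organoids (1013 and 246 reads, -2.48, -2.67 to -2.29), and GALNT6, which starts mucin O-glycans, was higher (74 and 513 reads, 2.15, 1.83 to 2.47). They were the 1 lower and the 1 higher of 17 genes of this list, beside 12.2% and 12.6% of all genes.

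Of 24 genes of secretory protein folding and transport, 1 was at least 2-fold higher and 4 lower in P5 organoids than in intestine, with a median of -0.047, beside 20.2% of all genes in each direction. The 4 lower were ERN1 (-2.37), SEC24D (-2.02), KDELR3 (-1.25) and DNAJB9 (-1.09). Between the passages, 4 of the 24 were at least 2-fold higher in P10 organoids and 1 was lower, with a median of 0.45, beside 12.6% and 12.2% of all genes. The 4 higher were PDIA4, a disulfide isomerase (537 and 2800 reads, 2.01), ERN2, the form of the IRE1 stress sensor found in mucus-making epithelium (472 and 1755 reads, 1.46), HYOU1, a chaperone (402 and 1443 reads, 1.38), and TMED3, a cargo receptor (314 and 1115 reads, 1.35). The lower gene was DNAJB9 (392 and 223 reads, -1.26).

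**Figure D5:**
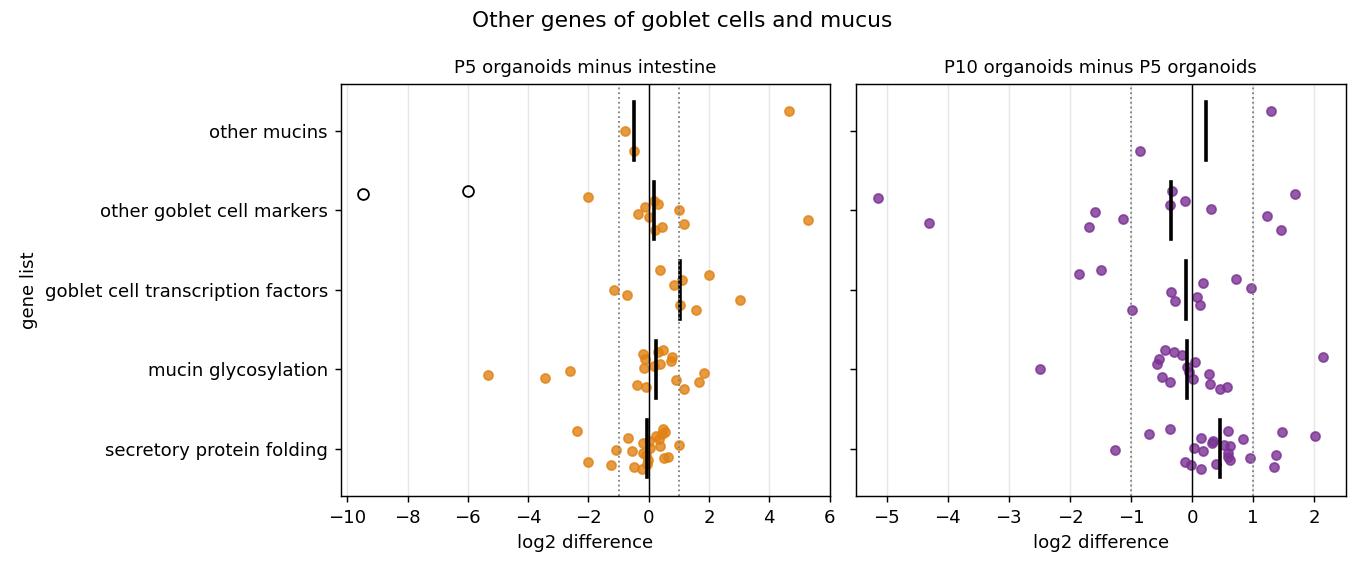
Log2 differences of genes in 5 lists related to goblet cells and mucus, for P5 organoids minus intestine (left) and P10 minus P5 organoids (right). Each point is a gene that reached 50 reads in the higher library, open circles are bounds against a library with no reads, thick bars are list medians and dotted lines mark 2-fold. In the left panel TFF2 and TFF1 lie farthest to the left, and in the right panel CLCA4 (-5.14) and LYPD8 (-4.31) do.

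The genes whose levels over the 4 libraries lay closest to those of MUC2 were sought among the 15051 genes that reached 50 reads somewhere, by the Euclidean distance of log2 values centred per gene. They were SLC17A7 (distance 0.57), LOC101905630 (0.72), C5 (0.74), SGK2 (0.75) and SLC45A3 (0.77). Only 4 libraries enter this distance, and several of these genes rest on few organoid reads, such as SLC17A7 with 6 in P5 and 17 in P10 organoids. The nearest gene of the set to MUC2 was TFF3, at 1.56. For MUC13 the closest genes were FAM84A (0.71), BAIAP2L2 (0.86), TTC22 (1.03), PPP1R14D (1.03) and PKP3 (1.05). Within the set TFF3 and SPDEF were the closest pair, at 1.10. SPDEF, SLC17A7, SGK2 and the 5 genes closest to MUC13 had no reads in muscle, and no floor was used here. In muscle 0 reads stood at 0 on the log2 scale and 1 read at 2.09, so these distances depend partly on that placing.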

How the data were processed

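For the 4 QuantSeq libraries the authors used Bowtie2, with indices of the genome or of transcript sequences, and Bedtools to count alignments per gene, multiple ones included. The authors deposited whole-number counts without normalisation. The assembly and the annotation behind the counts are not given in the sources used here, so no coordinates are printed. RefSeq's ARS-UCD2.0 table, in which all 10 symbols were found, was used only for neighbouring genes.

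The study's methods name quantile normalisation with edgeR without detail, so that upper-quartile scaling may have been meant. Here counts were quantile-normalised over the 22200 rows that had a read in some library, and used as log2(value + 1). Intervals of a difference carry the exact Poisson bounds of both counts through the normalisation and combine them by the square-and-add rule. CPM ratios have exact conditional intervals. Where 1 library had no reads, 3 reads were used in its place, and no fold is given where both had 3 or fewer. Folds given as at least a value use this floor and leave out counting error. In counts past 2-fold, values under 3 reads were set to 3. The alternatives were library totals (CPM) with and without the RN18S1 row, TMM and upper-quartile normalisation, scaling by the epithelium list, pseudocounts of 0.1 and 5, other read minimums, 4-fold, and rows summed by symbol. The scaling without 3 keratin genes was added after seeing the data.

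The genes and lists were chosen with earlier results of these data known. Named were the 10 genes, all other mucins with at least 50 reads, the 4 genes of each other list with the largest difference of P5 organoids and intestine and the 4 with the largest difference of the passages, and the 5 nearest genes of MUC2 and MUC13. MUC5AC, MUC6, CLCA4 in comparison with CLCA1, LYPD8 in comparison with intestine, GCNT3, AGR3, ATP2C2 and SLC12A8 were discussed after their values were seen. LYZ is in the Paneth cell and the leukocyte list. The Paneth cell list summed to 3820 CPM in intestine, 191 at P5 and 138 at P10, and 10 enteroendocrine genes to 518, 5.07 and 6.26 CPM. The calculations were tested on simulated counts. A search of promoters and proteins was not analysed here. Normalisation factors came from edgeR 4.0.16 in R 4.3.3, exact intervals from scipy 1.17.1, tables from pandas 2.3.3 with numpy 2.4.6, and figures from matplotlib 3.10.9, run under Python 3.11.15.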

Additional observations from a re-analysis of the deposited data

How the results depend on the processing

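Each group has 1 library, so no value could be recomputed without a replicate. No paired analysis was possible because the labels give no replicate numbers. Of 516 recomputed differences of the 10 genes, 349 stayed inside the counting interval, 153 left it without a change of sign and 14 changed sign. Of the 14, 6 were of MUC1 between P10 organoids and intestine, whose interval crossed 0 (0.11 with quantile normalisation, -0.99 with library totals, -1.21 with TMM or upper quartiles, -1.04 without RN18S1, and -3.14 or -2.30 with the epithelium scalings). Scaled by the epithelium list, MUC13 turned to -0.39 in P5 and -1.83 in P10 organoids against intestine and AGR2 to -1.71 and -1.48. Without the keratins, MUC13 turned to -0.94 in P10 organoids and AGR2 to -1.09 and -0.59. CLCA1 turned to 0.073 between P10 organoids and muscle with library totals. In these scalings all genes moved, by the medians given above.

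Counts of the set changed by more than 1.5 times in few settings. With a minimum of 10 reads or none, 8 genes were at least 2-fold higher in P10 organoids than in muscle, 2 in P5 organoids than in intestine, 1 in P10 organoids than in intestine and 1 in P10 than in P5 organoids. With either epithelium scaling, 0 were higher at P5 than in intestine and 1, MUC2, at P10 than at P5. At 4-fold, 0 were higher at P5 than in intestine and 1 was lower at P10 than at P5. With library totals, and also with TMM or upper-quartile normalisation, 1 other mucin (0 in the report) was lower in P5 organoids than in intestine. With TMM and upper-quartile normalisation 2 transcription factors were lower there, and with upper-quartile normalisation 2 were higher in P10 organoids than in intestine. Without RN18S1 in the total, the set took 0.659% of the reads in intestine, 0.223% at P5 and 0.00326% in muscle. Of all genes past 2-fold against intestine, 2.22% at P5 and 4.18% at P10 were higher with epithelium scaling (4.10% and 11.8% without keratins), where quantile normalisation gave 50.02% and 52.0%. Between P10 and P5 organoids these shares were 62.8%, 77.6% without keratins, and 50.9%. Against muscle, library totals gave 85.4% for intestine, 80.6% at P5 and 81.3% at P10, where quantile normalisation gave 56.0%, 56.6% and 58.4%.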
